A study of Mus musculus with 2 samples.

Results

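The genes described here are those whose name on a mouse 2-colour Agilent array begins with Zfp followed by a number. They were chosen by name alone, and the array carried 264 of them among its 27603 genes, read by 502 of 41174 probes. Of the 264, 135 were bright enough to be tested, among 9929 genes tested in all. A gene was tested where at least 1 of its probes was well above background in the same channel on both arrays, and its brightest such probe was used. The remaining 129 were not tested: 97 had no reading above background in either group, and 32 had some such reading without meeting the rule.

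RNA came from CD8+ T cells isolated by negative selection, at a labelled purity over 90%, on day 6 after infection with Listeria monocytogenes-OVA, a bacterium that carries ovalbumin as a model antigen. One group was Bcl11bF/F/dLck-iCre mice, in which a Cre recombinase under the distal Lck promoter removes floxed Bcl11b in T cells. The other was wild type, and both groups were infected. Each of the 2 arrays, named replicates 1 and 2, held 1 RNA of each group. Cy5 marked the deficient RNA and Cy3 the wild-type RNA throughout, so dye and genotype cannot be told apart. The number of mice behind each RNA is not given in the sources used here. With 2 arrays, the p-values rest on a spread between them that is shared by all genes, and not on a gene's own spread.

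Zfp is the mouse name prefix for zinc finger proteins, given by a protein motif and not by a shared task. Most are DNA-binding proteins with arrays of C2H2 fingers, each finger reading a few bases, and many carry a KRAB domain that recruits the corepressor Trim28 and silencing enzymes to transposons and genes. Others under the same prefix are CCCH proteins that destroy AU-rich mRNAs, ribosome factors, or ubiquitin ligases. Bcl11b is itself a C2H2 zinc finger protein that holds T cells to their lineage.

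The members' ratios are shown beside sequence for 2 reasons: Zfp410, the lowest member, is known for a single main target, Chd4, and several called members lie near each other. Promoter windows run from 250 bases before to 50 after a gene's start and are RefSeq sequence on build GRCm38.p6. They matched 114 of the 135 genes tested. The genes shown, and the motif put in capitals in each, were chosen after sequences and values had been seen. The first is Chd4 (chr6:125095731-125096030, plus strand), the chromatin remodeller of the NuRD complex. Its capitals mark CCCATAATA or its reverse complement, the Zfp410 motif. The letters of that motif, and of the NRF1 motif shown with the members, were settled after these windows had been read.
Chd4: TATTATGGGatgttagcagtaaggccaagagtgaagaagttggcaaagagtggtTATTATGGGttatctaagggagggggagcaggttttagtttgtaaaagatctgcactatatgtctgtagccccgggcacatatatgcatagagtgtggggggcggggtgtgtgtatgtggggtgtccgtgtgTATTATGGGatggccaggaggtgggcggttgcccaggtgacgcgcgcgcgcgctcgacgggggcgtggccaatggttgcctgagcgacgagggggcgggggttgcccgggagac
The Chd4 window held 3 matches, and it was the only window with 3 or more among 32851 in the RefSeq table. As the motif's letters were settled after that window had been read, this count is no independent support. At least 1 match stood in 0.0974% of all windows and in 0.649% of the members' 154 windows, which is 1 member gene, 1 of the 4 called higher.

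Next come the promoters of 3 members called lower. Zfp82 (chr7:30072774-30073073, minus strand) and Zfp639 (chr3:32510342-32510641, plus strand) have CGCATGCG, the centre of the NRF1 motif, in capitals. Zfp566 (chr7:30090461-30090760, minus strand), a neighbour of Zfp82 on the array's map, has no capitals because that motif was not in its window.
Zfp82: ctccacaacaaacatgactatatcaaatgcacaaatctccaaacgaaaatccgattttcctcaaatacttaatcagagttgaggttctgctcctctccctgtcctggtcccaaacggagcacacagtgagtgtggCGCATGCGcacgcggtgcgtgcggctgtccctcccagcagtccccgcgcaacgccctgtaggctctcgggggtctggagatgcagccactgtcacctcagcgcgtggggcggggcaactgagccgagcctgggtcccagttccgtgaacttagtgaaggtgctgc
Zfp639: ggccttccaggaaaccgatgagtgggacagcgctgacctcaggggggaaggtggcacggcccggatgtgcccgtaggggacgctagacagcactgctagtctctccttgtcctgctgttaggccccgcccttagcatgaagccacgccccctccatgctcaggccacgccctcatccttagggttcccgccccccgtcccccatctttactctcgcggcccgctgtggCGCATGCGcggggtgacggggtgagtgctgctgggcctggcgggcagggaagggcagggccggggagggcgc
Zfp566: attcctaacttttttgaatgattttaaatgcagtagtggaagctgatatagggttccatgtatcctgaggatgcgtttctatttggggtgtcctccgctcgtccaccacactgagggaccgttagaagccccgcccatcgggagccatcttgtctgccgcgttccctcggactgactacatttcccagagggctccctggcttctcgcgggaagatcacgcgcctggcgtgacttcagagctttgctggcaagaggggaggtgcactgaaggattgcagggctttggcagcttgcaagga
CGCATGCG stood in 2 of the 6 called-lower members with a window and in 0 of 4 called higher, against 6 of all 114 member genes (5.26%). Counted by window, it stood in 1.87% of all windows and 4.55% of the members' windows. As the motif's letters were settled after these promoters had been read, the counts support no difference. CGCATGCG reads the same on both strands.

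The last pair are promoters of members called higher. Zfp768 (chr7:127345265-127345564, minus strand) has GGCCGG or its reverse complement in capitals, a core reported for Bcl11 proteins. Zfp710 (chr7:80024564-80024863, plus strand) holds no such match.
Zfp768: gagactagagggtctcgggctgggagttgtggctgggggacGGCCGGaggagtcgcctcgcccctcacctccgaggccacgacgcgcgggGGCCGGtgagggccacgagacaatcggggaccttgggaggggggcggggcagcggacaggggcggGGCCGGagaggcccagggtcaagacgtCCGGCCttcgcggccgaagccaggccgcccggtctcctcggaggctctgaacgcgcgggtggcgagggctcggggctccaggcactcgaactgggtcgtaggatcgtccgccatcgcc
Zfp710: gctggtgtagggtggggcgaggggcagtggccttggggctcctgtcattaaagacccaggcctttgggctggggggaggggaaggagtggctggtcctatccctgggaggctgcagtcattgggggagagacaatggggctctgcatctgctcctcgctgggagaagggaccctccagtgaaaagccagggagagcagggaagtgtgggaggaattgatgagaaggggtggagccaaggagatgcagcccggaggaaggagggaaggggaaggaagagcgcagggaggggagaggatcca
The Zfp768 window held 4 matches to GGCCGG and the Zfp639 window 1. GGCCGG stood in 37.0% of the members' windows and 19.0% of all windows. GGGCGG, the GC box, stood in 54.5% and 35.7%, the ETS motif CCGGAAG in 18.2% and 8.86%, and CCAAT in 39.6% and 37.4%. Both strands were searched, and GGCCGG and CCGGAAG can share their CCGG. The members' windows had a median GC content of 59.7% against 52.7%, and a median CpG observed-over-expected ratio of 0.755 against 0.384. Each match describes letters only.

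The 135 members spread widely around 0. Values are log2 ratios of deficient over wild type, so 1 is 2-fold. Mean ratios ran from -1.52 for Zfp410 to 1.39 for Zfp768, with a median of -0.31, against a median of -0.12 over all genes tested. The members' median was -0.42 on replicate 1 and -0.11 on replicate 2, and that of all genes -0.22 and -0.01. On both arrays 71 members were below 0 and 35 above, against 41.5% and 32.5% of all genes, and 29 had opposite signs. Across the 135 members the 2 arrays had a Pearson correlation of 0.581 and a Spearman correlation of 0.564, which describes genes that share RNAs, arrays and dyes.

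By limma's test of the mean ratio against 0, with Benjamini-Hochberg adjustment over all genes and a threshold of 0.05, 11 of 135 members were called. That is 8.15%, near the 9.65% of all genes called, so the count is no result about the members. Higher in deficient cells were Zfp768, Zfp37, Zfp13 and Zfp710, 2.96% against a background of 3.68%. Lower were Zfp410, Zfp82, Zfp639, Zfp26, Zfp180, Zfp52 and Zfp566, 5.19% against 5.97%. Zfp768 and Zfp37 were more than 2-fold higher on both arrays (background 2.6%) and Zfp777, not called, more than 2-fold lower (background 1.87%). In all 124 were not called, and 28 members and 2175 genes had an unadjusted p under 0.05. limma gave every gene the same standard error, 0.42, so a call depended only on a mean ratio of at least 1.18 in size. The calls depended on the processing: 0 members were called with the scanner program's own processed signals, 0 higher and 1 lower with median centring in place of loess, and 5 higher and 0 lower of 68 where both channels had to be above background (9.46% and 3.69% of all genes so tested). Just outside the threshold were Zfp692 and Zfp451 at -1.14, Zfp777 at -1.13 and Zfp219 at 1.10.

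**Figure D1:**
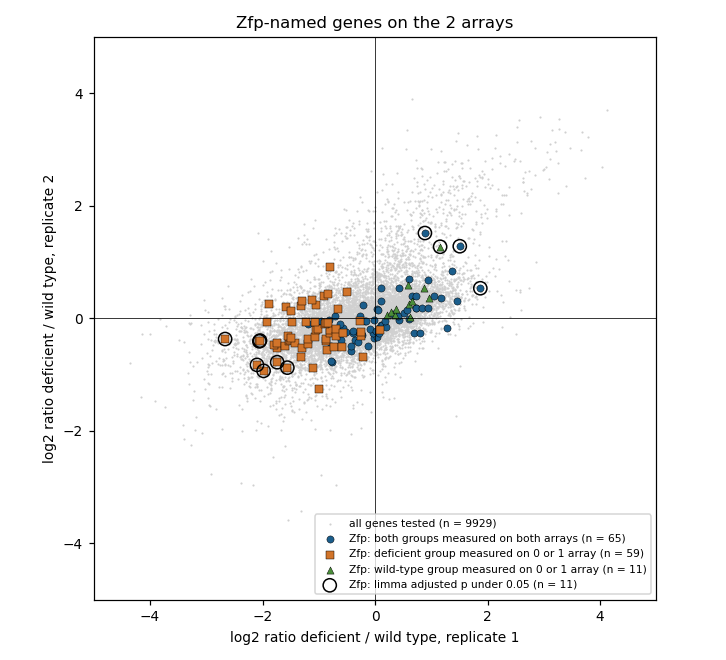
Each point is a gene's log2 ratio of deficient over wild type on replicate 1 (x axis) and replicate 2 (y axis), with all 9929 genes tested in grey, Zfp-named genes coloured by where their signal was above background, and rings around the 11 called. The members measured in the deficient group on 0 or 1 array stretch to the left on replicate 1 but stay within 2-fold on replicate 2, except for Zfp777.

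The members' low ratios were mostly on replicate 1. There 38 members (28.1%) were more than 2-fold lower in deficient cells, against 21.6% of all genes. On replicate 2 it was 1 member, Zfp777 (0.741% against 2.52%). Only 2 of the 38 had a deficient signal above background on replicate 1. In the deficient channel the median negative-control spot read 968 units on replicate 1 and 707 on replicate 2, while in the wild-type channel it read 326.5 and 406. Zfp probes above background made up 24.5% and 32.9% in the deficient channel and 37.6% and 31.7% in the wild-type channel. The part of this background in the low ratios was not tested.

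Grouped by channel flags, the members looked different. Both groups were above background on both arrays for 65 members, whose median ratio was 0.00, with 24 above 0 and 25 below 0 on both arrays. Of these 65, 3 were called higher (Zfp768, Zfp13 and Zfp710) and 0 lower, against 5.54% and 1.29% of the 5720 genes in that class, and 5 had an unadjusted limma p under 0.05. Another 49 had wild-type signal on both arrays but deficient signal on 1, and for 47 of them the missing reading was on replicate 1. Their median was -1.22 on replicate 1 and -0.26 on replicate 2, and 6 of them (12.2%) were called lower, against 13.1% of the 2426 genes in that class. For 10 members the deficient group was not above background on either array, 1 of them called lower, Zfp82, against 28.6% of the 703 genes in that class. Wild-type signal was missing on 1 array for 3 members and on both for 8. A member that passed through 1 group alone had to lean that way, so these classes support no direction.

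Among members called higher, Zfp768 had the largest mean ratio. Its ratios were 1.50 and 1.28, with channel levels on a log2 scale of 10.71 and 10.35 in deficient and 9.20 and 9.07 in wild-type cells. The groups did not overlap, and all 4 readings were above background. The mean was 1.39 (SD 0.16, n = 2 arrays), a 2.63-fold increase, with a limma adjusted p of 0.0153. Its probe lies at chr7:127133988-127134047 on build mm8, the build of the array's coordinates, and no annotation of that build was used to place it in an exon.

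Zfp710 was the brightest called member. Its channel levels were 12.21 and 12.57 in deficient and 11.33 and 11.05 in wild-type cells, and its ratios 0.89 and 1.52. The groups did not overlap, for a mean of 1.20 (SD 0.45, n = 2 arrays; limma adjusted p 0.0445). A second Zfp710 probe, not above background in any reading, gave -0.01. Zfp13 had ratios of 1.87 and 0.54, from deficient levels of 11.50 and 10.09 against 9.63 and 9.56. The deficient readings differed more between arrays than the wild-type ones, and the mean was 1.20 (SD 0.94, n = 2 arrays; limma adjusted p 0.044).

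Zfp37 had ratios of 1.16 and 1.28, the closest pair among the called members. Its deficient levels were 10.13 and 9.40 and its wild-type levels 8.98 and 8.12, the last of them not above background. Zfp37 thus passed the filter through deficient cells alone, and its call supports no direction. The mean was 1.22 (SD 0.08, n = 2 arrays; limma adjusted p 0.0412). A second Zfp37 probe without a reading above background gave -0.36.

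The lowest member was Zfp410, the transcription factor known for activating Chd4. Its levels were 9.98 and 9.72 in wild-type and 7.31 and 9.36 in deficient cells. Both deficient readings were lower, the one on replicate 1 far more so and not above background, and the ratios were -2.67 and -0.37. The mean was -1.52 (SD 1.63, n = 2 arrays; limma adjusted p 0.00676), and on replicate 2 alone the difference was less than 2-fold. Its probe lies at chr12:85233056-85233115 (mm8). Chd4, whose promoter is printed above, had ratios of 0.18 and 0.34 and a mean of 0.26 (SD 0.11), not called at a limma adjusted p of 0.749.

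Zfp639 was the brightest of the members called lower. Wild-type levels were 11.45 and 11.30 and deficient levels 9.47 and 10.37, with the first of these not above background. The ratios were -1.98 and -0.93 and the mean -1.46 (SD 0.74, n = 2 arrays; limma adjusted p 0.0102). Zfp82 had ratios of -2.10 and -0.82 and a mean of -1.46 (limma adjusted p 0.00987). Its deficient signal was above background on neither array. All 7 members called lower, Zfp82 and Zfp410 among them, passed the filter through wild type alone, so these calls support no direction. With the deficient readings of Zfp82 raised to the level of the dimmest probes above background, wild-type signal was 1.95-fold that of deficient cells. Readings not above background can exceed that level, as for Zfp639 on replicate 1, so this is no firm minimum. It is also open to dye bias. A second Zfp82 probe without a reading above background gave 0.17. The 2 remaining with both arrays well below 0 were Zfp26 (-1.74 and -0.78; limma adjusted p 0.0329) and Zfp566 (-1.56 and -0.87; limma adjusted p 0.0409). The 7 other Zfp26 probes, none of which passed the filter, gave means from -0.77 to 0.25.

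Zfp180 and Zfp52 were called on replicate 1 in the main. Zfp180 had ratios of -2.06 and -0.41 and Zfp52 of -2.05 and -0.39, with limma adjusted p values of 0.0379 and 0.0404. For both, the deficient reading on replicate 1 was not above background. A second passing probe of Zfp52 gave -0.55, and a second Zfp180 probe, above background on 1 array in each group, gave 0.16.

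**Figure D2:**
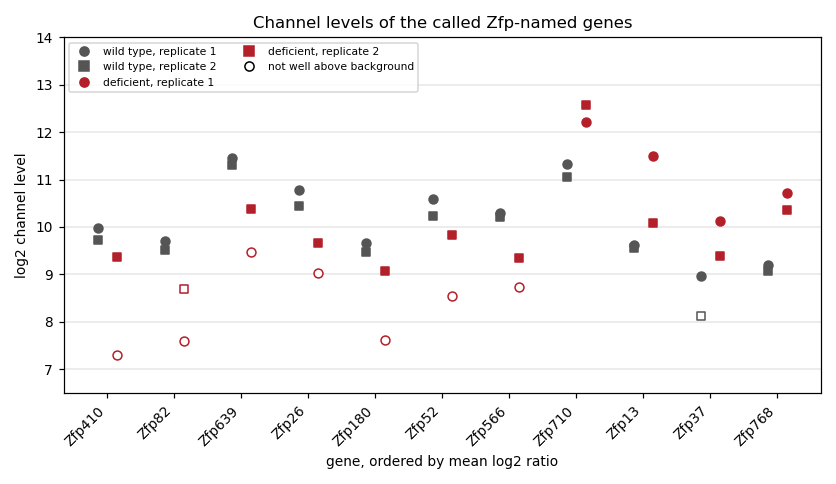
Log2 channel levels (y axis) of the 11 called members (x axis, by mean log2 ratio), 4 readings each, circles for replicate 1, squares for replicate 2, grey for wild type and red for deficient, open where the reading was not well above background. The 7 members called lower have an open deficient reading on replicate 1, whereas among the 4 called higher the only open reading is 1 wild-type reading of Zfp37.

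Different probes of a member could differ in sign. A gene's other passing probe had the opposite sign in 14 of 33 cases (42.4%), against 34.9% of 2693 such probes over all genes. Zfp777 had a mean of -1.13 (SD 0.18, n = 2 arrays) with its deficient signal above background on neither array. Its second probe, above background in both groups on both arrays, gave 0.04. Zfp335 gave -1.09 on 1 probe and 0.40 on another. Zfp7 gave 0.52 on its brightest probe and -0.93 on another.

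For members not above background in 1 group on both arrays, a floored ratio was taken over the means of both arrays. Dim readings below the level of the dimmest probes passing as above background were raised to that level. Readings not above background can exceed that level, so a floored ratio is no firm minimum, and a single array can lie below it. Such a member passed the filter through its brighter group alone, so its side of 0 supports no direction. Where the dim group's own reading lay above that of the dimmest probes passing as above background, the floored ratio is the measured ratio itself. That was so for Zfp777, at 2.19-fold with wild type brighter, and for Zfp423 and Zfp369, at 1.40-fold and 1.21-fold with deficient brighter. Elsewhere the floored ratio was below the measured one. Wild-type signal was then 1.64-fold that of deficient cells for Zfp646, 1.45-fold for Zfp644, 1.44-fold for Zfp809 and 1.32-fold for Zfp81. Deficient signal was then 1.33-fold that of wild-type cells for Zfp609 and 1.31-fold for Zfp36l3. Apart from Zfp82, no member given such a floored ratio was called.

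Of the 8 brightest members, Zfp710 alone was called. Zfp313, the old name of the ubiquitin ligase Rnf114, was the brightest, at 13.08 and 12.93 in deficient and 13.02 and 12.78 in wild-type cells, a ratio of 0.06 and 0.16. Zfp36l1 gave -0.22 and 0.23, Zfp592 0.07 and -0.25, Zfp771 0.73 and 0.40, Zfp740 -0.79 and -0.49, Zfp207 -1.04 and -0.11 and Zfp330 -1.20 and -0.11.

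The CCCH proteins shorten mRNAs with AU-rich tails, and in T cells they hold back cytokine messages. None of the 4 was called. Zfp36, or tristetraprolin, had ratios of -1.92 and -0.06, the difference lying entirely on replicate 1, where its deficient reading was not above background. Zfp36l2 gave -0.25 and -0.31, and Zfp36l3, a rodent copy best known from placenta, 0.59 and 0.60 with wild-type signal above background on neither array. Of their 25 partner genes of deadenylation and decapping, 20 were tested and 0 called (median -0.13, with -0.29 on replicate 1 and -0.13 on replicate 2). Of 15 known target mRNAs of tristetraprolin, 10 were tested and 1, Myc, was lower, at -1.72 and -1.42 (limma adjusted p 0.00473). The targets' median was 0.39, from 0.0014 on replicate 1 and 0.66 on replicate 2, and Ifng gave -1.64 and 0.44.

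Of 8 members known from lymphocytes, 6 were tested and 0 called. Zfp335, needed for the upkeep of peripheral T cells, gave -1.75 and -0.44. Zfp318, needed for IgD splicing in B cells, gave -0.67 and 0.17, and Zfp91, which acts on noncanonical NF-kappaB signalling, -0.17 and -0.04. Zfp281 gave -1.31 and -0.68, and Zfp148 0.43 and -0.02. On replicate 1 the deficient readings of Zfp335, Zfp318 and Zfp281 were not above background.

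Of the KRAB proteins known for silencing, 2 were tested and 0 called. Zfp445, which guards imprinted loci, gave 0.66 and 0.39. Zfp809, which recognises retroviral primer-binding sites, gave -1.18 and -0.46, with deficient signal above background on neither array. Their corepressors can be read more fully: 23 of 29 were tested, with a median of -0.44 (-0.60 on replicate 1 and -0.37 on replicate 2). Of these, 0 were called higher and 4 lower, Mta3, Mbd3, Gatad2b and Atf7ip, against 3.68% and 5.97% of all genes. Deficient signal was above background on 1 array for Mta3, Mbd3 and Atf7ip and on neither for Gatad2b. Of all genes in those 2 classes, 13.1% and 28.6% were called lower, so these calls support no direction for the corepressors. Trim28 itself gave -0.51 and -0.18. Mbd3 was at -2.98 on replicate 1 and 0.11 on replicate 2, and Gatad2b at -1.60 and -1.05.

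Among RNA and ribosome factors, 9 of 10 on the array were tested and 0 called, with a median of -0.48 that was -0.88 on replicate 1 and -0.09 on replicate 2. Zfp598, the ligase that marks collided ribosomes, gave -0.97 and -0.05, and Zfp622, a factor of large-subunit maturation, -1.32 and 0.22. Zfp593, a factor of large-subunit export, gave 0.79 and -0.26, and Zfp106 -1.89 and 0.26. A second Zfp593 probe, with all 4 readings above background, gave -0.69 and -0.58. Apart from Zfp410, 12 chromatin and transcription members were tested and not called: Zfp451, a SUMO ligase, gave -1.80 and -0.47, and Zfp219 1.36 and 0.85 with all 4 readings above background. Zfp143, a promoter-bound activator, gave -0.81 and -0.25. The BTB members Zfp161 (now Zbtb14) and Zfp238 (now Zbtb18) gave -1.48 and -0.07, and -0.84 and 0.44. Of the ligases, Zfp364 (now Rnf115) gave -1.30 and 0.30. On replicate 1 the deficient readings of Zfp622, Zfp106, Zfp451, Zfp143, Zfp161, Zfp238 and Zfp364 were not above background.

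**Figure D3:**
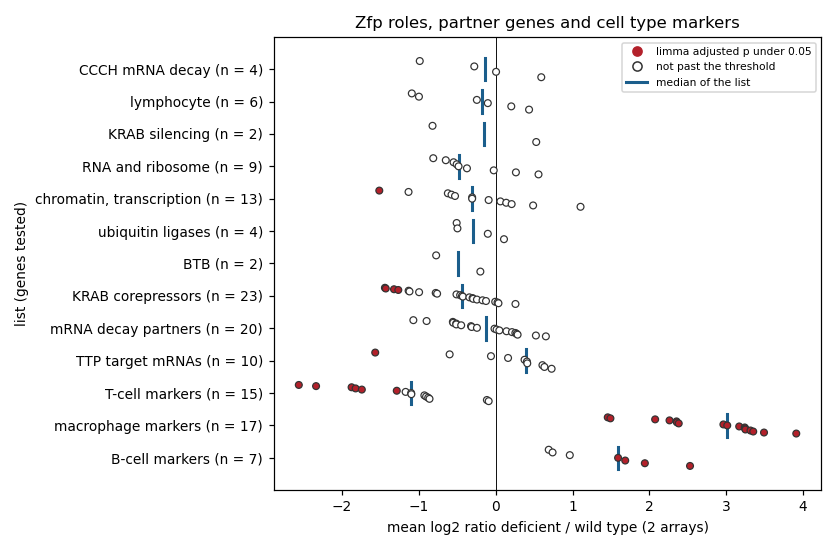
Mean log2 ratio of deficient over wild type over 2 arrays (x axis) for each gene tested in the members' role lists, their partner genes and cell type markers (y axis), filled red where limma's adjusted p was under 0.05, with a blue bar at each list's median. Apart from Zfp410 the role lists hold no call, whereas all 17 macrophage markers tested are red and lie between 1.46 and 3.91.

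Markers of other cells moved with the comparison. Of 20 macrophage markers, 17 were tested and 17 were called higher, with a median of 3.01. Their summed raw signal was 187139 and 378550 in deficient against 41338 and 32267 in wild-type cells. Sums here are of raw spot means, with each channel's background left in and no normalization between dyes. B-cell markers were called higher in 4 of 7 tested of 12, neutrophil markers in 3 of 7 of 10 and erythroid markers in 4 of 6 of 10. The shares over all genes tested were 3.68% called higher and 5.97% called lower. T-cell markers were called lower in 6 of 15, with a median of -1.10 and a summed raw signal of 83734 and 134305 against 235792 and 275446. Of these 15, all were above background in wild-type cells on both arrays and 13, Cd8a and Cd8b1 among them, in deficient cells on both. Cd3e was above background in deficient cells on 1 array and Cd28 on neither. Fewer cells of a type and less RNA per cell cannot be told apart in these samples, and the markers' part in the members' ratios was not tested. The Bcl11b probe gave -0.69 and -2.95, a mean of -1.82 (SD 1.60, n = 2 arrays; limma adjusted p 0.000652). The labels do not name the deleted exons, so it does not test the deletion.

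By position, 30 of the members tested lie in 6 clusters, runs of at least 4 members with gaps under 500 kb on build mm8. On chromosome 7, Zfp82 and Zfp566, 21.3 kb apart, were both called lower, while Zfp27 in the same cluster gave 0.71 and Zfp84 -0.43. Zfp82 and Zfp566 passed the filter through wild type alone and Zfp27 through deficient alone, so their sides of 0 support no direction. The deficient reading of Zfp566 on replicate 1 was not above background. Zfp768 rose in the cluster at chr7:127028797-127676884, where Zfp764, 60.9 kb from it, gave -0.78 and -0.75 with all 4 readings above background. In the cluster at chr6:47836199-47992504 all 4 tested members had a mean below 0 (Zfp282, Zfp212, Zfp777 and Zfp746), as had 5613 of the 9929 genes tested, and 0 were called. Zfp777 passed the filter through wild type alone, and its second probe gave 0.04. Zfp282 gave 0.41 on replicate 2. The deficient readings of Zfp282 and Zfp746 on replicate 1 were not above background, so these members too passed through wild type alone. Clusters held 1 member called higher and 3 called lower of 30 (3.33% and 10%), and the 104 placed outside 3 and 4 (2.88% and 3.85%). Of all genes tested, 3.68% were called higher and 5.97% lower. The clustered members called lower passed the filter through wild type alone, so these counts support no difference by position.

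**Figure D4:**
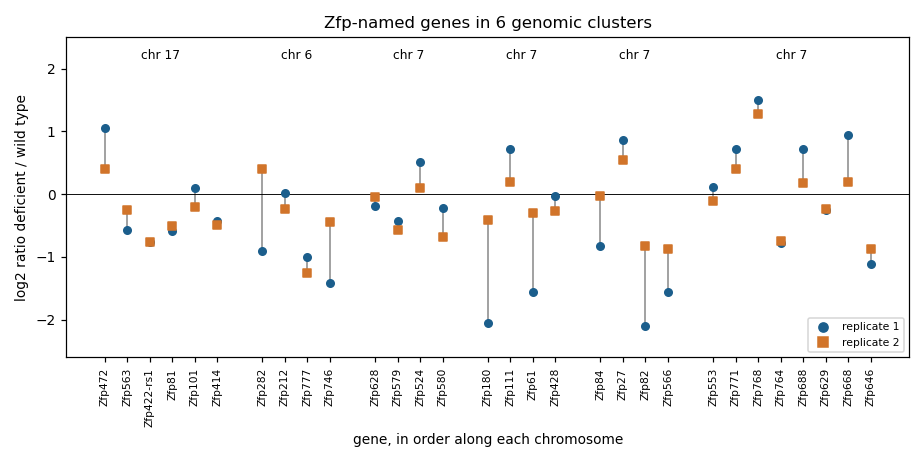
Log2 ratio of deficient over wild type (y axis) for the 30 members in 6 clusters, in order along each chromosome (x axis), circles for replicate 1 and squares for replicate 2, joined by a line. Neighbours differ in sign within 5 of the 6 clusters by mean ratio, and the longest lines are those of Zfp180, Zfp282 and Zfp82.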

How the data were processed

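CD8+ T-cell RNA of 2 deficient and 2 wild-type samples was read on 2 arrays. The deposited scanner files hold each spot's mean and local background intensity, written with Agilent Feature Extraction 9.5.3.1 per the submitters' processing notes, together with channel flags. The deposited value table holds a log10 ratio of red (deficient) over green (wild type).

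Background was corrected with normexp (offset 50), a loess curve was taken off each array (control spots weighted 0), outlier spots were dropped and duplicate spots averaged. Probes passed where the flag for a signal well above background was set in the same channel of each array (12622 of 41174). This reading of the filter was chosen because it gave nearly the count of an earlier account, and a looser one, a channel on each array, kept 12839. The brightest probe stood for a gene, and limma 3.58.1 (R 4.3.3) tested the mean log2 ratio against 0. Channel levels come from loess, then Aquantile. The fit was tested on simulated data. Probes were named by RefSeq accession (24085), symbol or synonym (9014), or kept the array's name (8075). Probe coordinates are mm8; promoters are GRCm38.p6.

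The members and gene lists were chosen with earlier results of these data known. Named genes were Bcl11b, called members, the 8 brightest, role-list members, those with the largest floored ratios and those in clusters of at least 4. Others were singled out after their values were seen. Alternatives covered the background, centring, filter, probe choice, value table, separate channels and each array alone. The replicate numbers mark the array that holds both RNAs. RefSeq protein sequences were not used here.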

Additional observations from a re-analysis of the deposited data

How the results depend on the processing

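No called member changed sign under any alternative run, but 9 of the 11 lost their call under most of them. Against 4 members called higher and 7 lower of 135, the scanner program's processed signals gave 0 and 0 (median -0.63 against -0.31), as did the deposited value table (0, 0 and -0.63). Without background correction the counts were 2 and 1, with an offset of 16 they were 2 and 7, with median centring 0 and 1, and with the genes' median set to 0 they were 5 and 7. Without a filter on dim probes 0 and 0 of 264 were called, with 54 members at an unadjusted limma p under 0.05, and requiring both channels gave 5 and 0 of 68 (median 0.013). A channel on each array, chosen after seeing the data, gave 1 and 6. Treating the channels as separate samples, with no replicate block, gave 0 and 0 members, with 32 at an unadjusted limma p under 0.05. The median over all genes was -0.12, and -0.41 under median centring. With 1 array no residual degrees of freedom are left, so each array alone gives values but no counts, and the median of the members ranged from -0.42 to -0.11. Of the called members, Zfp639 passed the threshold in 6 of 10 alternatives and Zfp768 in 6 of 11, and the others in 3 or 4 of 10 or 11.

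Some members that were not called changed sign. With the scanner program's signals and the value table these were Zfp101 (0.29), Zfp346 (0.0068), Zfp516 (-0.62) and Zfp553 (-0.19). With median centring they were Zfp101 (0.15), Zfp148 (-0.40), Zfp313 (-0.82), Zfp346 (0.15), Zfp36l1 (-0.82), Zfp385 (-0.12), Zfp524 (-0.23), Zfp593 (-0.39), Zfp688 (-0.038) and Zfp771 (-0.18). With the genes' median at 0 they were Zfp101 (0.057), Zfp212 (0.0068), Zfp346 (0.087), Zfp592 (0.020) and Zfp91 (0.0096). With the mean of a gene's probes they were Zfp148 (-0.022), Zfp313 (-0.23), Zfp472 (-0.14), Zfp593 (-0.19) and Zfp64 (0.00936). Without background correction Zfp36l1 gave -0.018, and with both channels required Zfp777 gave 0.039, from another probe. Between single arrays, values ran for Zfp101 from -0.21 to 0.093, Zfp106 from -1.89 to 0.26, Zfp148 from -0.025 to 0.43, Zfp212 from -0.23 to 0.019, Zfp238 from -0.84 to 0.44, Zfp282 from -0.90 to 0.41, Zfp318 from -0.67 to 0.17, Zfp364 from -1.30 to 0.30, Zfp36l1 from -0.22 to 0.23, Zfp385 from -0.17 to 1.29, Zfp516 from -0.80 to 0.92, Zfp553 from -0.11 to 0.12, Zfp592 from -0.25 to 0.065, Zfp593 from -0.26 to 0.79 and Zfp622 from -1.32 to 0.22. The cause was not tested. The number of arrays and dim signals limit what can be seen.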

Other observations

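Genes named Zfp today but listed under another name on the array were not members by the rule. Of 105 such genes, 38 were tested, with 0 called higher and 4 lower by limma: Zfp959, Zfp783, Zfp827 and Zfp512b. The lower calls were 10.5%, and of all genes 3.68% were called higher and 5.97% lower. Zfp783 had ratios of -1.68 and -1.17 and Zfp827 of -1.29 and -1.31, and both were more than 2-fold lower on each array (background 1.87%). Zfp959 gave -2.40 and -0.68 and Zfp512b -1.60 and -0.85. The deficient signal was above background on neither array for Zfp959, Zfp783 and Zfp512b, and on 1 for Zfp827. Of all genes in those 2 classes, 28.6% and 13.1% were called lower, so these calls support no direction. These genes were picked for their values among the 38.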
